A study of Mus musculus with 36 samples.

Results

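The genes of the D cyclin and CDK4 and CDK6 module were followed in mouse embryonic fibroblasts (MEFs), cultured connective-tissue cells, whose major satellite repeats (MSRs, the tandem repeats of pericentromeric heterochromatin) were targeted by a catalytically dead Cas9 (dCas9). The 9 genes were chosen by name as the members of this step of the cell cycle: the 3 D cyclins Ccnd1, Ccnd2 and Ccnd3, the kinases Cdk4 and Cdk6, the INK4 inhibitors Cdkn2a, Cdkn2b and Cdkn2c, and the p27 gene Cdkn1b. They were 9 of the 54842 genes in the deposited count table, and 9 of 9 passed the filter on low counts that left 28536 genes for testing. RNA was sequenced from 36 libraries, 3 replicates of each of 12 groups. Every line carried an MSR guide RNA that was expressed constitutively and a dCas9 construct under a doxycycline-responsive promoter. Both had been introduced by PiggyBac transposition, and the lines were hygromycin-selected mixed populations and not clones. In the MSR-dCas9-Control line dCas9 carried no transcriptional effector, and in the MSR-dCas9-Activator line it was fused to the activation domain VPR. Each line was sampled uninduced, at the end of induction, and 3 h, 6 h, 12 h and 24 h after transfer to doxycycline-free medium. Induction was with doxycycline at 10 ng/ml in both lines, for 24 h in the Control line and for 6 h in the Activator line, so the effector and the length of induction cannot be told apart between the induced groups.

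D-type cyclins couple growth-factor signals to the cell cycle: they bind CDK4 or CDK6, and the active kinases phosphorylate the retinoblastoma protein RB and its relatives, which releases E2F transcription factors that drive genes of S phase entry. INK4 proteins bind CDK4 and CDK6 directly and keep them from forming active complexes with D cyclins, whereas p27, a CIP/KIP protein, inhibits cyclin E-CDK2 and is itself titrated by cyclin D complexes. In cultured fibroblasts the INK4 genes are known for their part in senescence, and the Cdkn2a locus gives rise to p16Ink4a and, from another first exon and reading frame, to p19Arf, a regulator of p53.

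The 9 genes lay on 6 chromosomes of GRCm38. Ccnd1 spanned chr7:144929931-144939925 on the minus strand, Ccnd2 chr6:127125162-127152193 on the minus strand and Ccnd3 chr17:47505051-47599691 on the plus strand. Cdk4 spanned chr10:127063534-127067920 and Cdk6 chr5:3341485-3531008, both on the plus strand. Cdkn2a at chr4:89274471-89294653 and Cdkn2b at chr4:89306299-89311039 were neighbours 11646 bases apart, both on the minus strand. Cdkn2c lay elsewhere on the same chromosome, at chr4:109660876-109667189 on the minus strand, and Cdkn1b at chr6:134920401-134925513 on the plus strand. RefSeq promoter entries (GRCm38.p6) were matched for 7 of the 9 genes, with 10 entries in all. For each the 250 bases upstream of the start in that entry were read. Such a start can lie within the gene span given above, and both Cdkn2c windows fell inside its span.

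The promoters of 4 genes are printed 5′ to 3′ on the gene's strand: those of the 3 inhibitors that differed most in RNA level between the lines, and that of Cdk4. In the main analysis Cdk4 was the kinase that differed in the other direction, which did not hold under another scaling of the libraries given below. Capitals mark matches, on either strand, to CCAAT, to the GC box GGGCGG, to the cyclic-AMP response element TGACGTCA and to the E-box CACGTG, the letters bound by MYC and USF factors. The Cdkn1b promoter (chr6:134920151-134920400, plus strand) held 2 CCAAT matches and 1 GC box. The Cdkn2b promoter (chr4:89311033-89311282, minus strand) held 1 TGACGTCA, and the first Cdkn2c promoter entry (chr4:109666757-109667006, minus strand) 3 GC boxes. The other Cdkn2c entry (chr4:109665373-109665622, minus strand) is not printed and held no match to any of the letters searched. The Cdk4 promoter (chr10:127063285-127063534, plus strand) held 4 E-boxes and 1 GC box.
Cdkn1b: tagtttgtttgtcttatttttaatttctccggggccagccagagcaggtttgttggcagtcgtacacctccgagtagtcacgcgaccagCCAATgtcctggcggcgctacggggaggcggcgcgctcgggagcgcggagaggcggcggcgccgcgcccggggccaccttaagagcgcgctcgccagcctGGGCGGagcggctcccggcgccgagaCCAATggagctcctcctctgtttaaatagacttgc
Cdkn2b: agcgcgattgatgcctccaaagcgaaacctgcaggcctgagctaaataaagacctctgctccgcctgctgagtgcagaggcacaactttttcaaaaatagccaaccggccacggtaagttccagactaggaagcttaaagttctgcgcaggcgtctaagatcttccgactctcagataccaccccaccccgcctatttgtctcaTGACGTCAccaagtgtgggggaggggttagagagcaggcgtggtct
Cdkn2c: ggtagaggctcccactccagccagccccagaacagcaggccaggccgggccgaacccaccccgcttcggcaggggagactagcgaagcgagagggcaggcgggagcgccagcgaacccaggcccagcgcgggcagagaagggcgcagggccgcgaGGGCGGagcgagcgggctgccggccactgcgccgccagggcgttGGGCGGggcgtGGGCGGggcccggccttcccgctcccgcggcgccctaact
Cdk4: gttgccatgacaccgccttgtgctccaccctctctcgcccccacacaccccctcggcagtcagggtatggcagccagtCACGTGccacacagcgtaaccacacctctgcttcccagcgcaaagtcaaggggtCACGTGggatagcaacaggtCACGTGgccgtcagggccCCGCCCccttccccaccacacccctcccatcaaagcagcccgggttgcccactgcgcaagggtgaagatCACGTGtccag
Among 32851 mouse promoters of the same length, CCAAT was found in 33.8%, the GC box in 32.7%, CACGTG in 6.02% and TGACGTCA in 1.55%. The E2F letters TTTCGCGC (0.256% of promoters), TTTGGCGC (0.417%) and TTTCCCGC (0.895%) and the TATA letters TATAAA (12.4%) were searched as well and were not found in these 4 sequences. The matches describe the letters of these windows and were not tested for a relation to the RNA levels.

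Gene counts per library ranged from 27376846 to 57371803, with a median of 42865961. Levels are given as CPM, the count of a gene scaled to a common library total after normalisation by the trimmed mean of M values (TMM). GSAT_MM, the transcript of the targeted repeat, lay between 22.6 and 47.1 CPM in the Control libraries, between 52.1 and 99.3 CPM in the uninduced Activator libraries and between 2362 and 47244 CPM in the Activator libraries from induction on. Of 10 fibroblast markers 9 were above 1 CPM in every library and Thy1 was below 1 CPM throughout. Their summed level was 22218 to 34421 CPM in the Control line and 10823 to 33826 CPM in the Activator line. Summed levels in the Control and Activator lines were 0.869 to 1.66 and 1.98 to 4.22 CPM for 5 epithelial markers, and 3.76 to 5.37 and 3.54 to 8.68 CPM for 4 blood markers. In the same order they were 0.0919 to 0.873 and 0.280 to 33.5 CPM for 3 endothelial markers, of which Pecam1 reached 32.7 CPM, and 0.330 to 1.09 and 0.759 to 3.50 CPM for 3 pluripotency markers. They were 0 to 0.145 and 0 to 8.10 CPM for 3 hepatocyte markers and 47.6 to 71.02 and 20.5 to 70.4 CPM for 4 neural markers. In the endothelial list Cdh5 did not exceed 0.533 CPM and Kdr reached 1.31 CPM. In the blood list Hbb-bs had no count in any library, Ptprc reached 1.23 CPM and Cd68 lay between 3.17 and 7.92 CPM. Alb of the hepatocyte list reached 7.28 CPM and Gfap of the neural list 7.85 CPM. The part of these shifts in the results was not tested. In bulk RNA, fewer cells with a transcript and less of it per cell cannot be told apart.

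Before induction the 9 genes differed widely in level per kilobase of exon, and the order in the Control line ran from Cdk4 to Ccnd3. In uninduced Control libraries Cdk4 stood at 138 ± 11.4 CPM per kb (SD, n = 3), followed by Ccnd2 at 77.2 ± 2.63, Cdkn2a at 59.3 ± 8.45, and Ccnd1 at 55.2 ± 5.64 CPM per kb. Below these came Cdk6 at 32.7 ± 0.17, Cdkn2b at 20.6 ± 2.06, Cdkn1b at 16.7 ± 1.61, Cdkn2c at 16.6 ± 1.34 and Ccnd3 at 8.93 ± 0.33 CPM per kb. Cdkn2a and Ccnd1 overlapped between libraries, as did Cdkn1b and Cdkn2c, and the other neighbours in the order did not. In Activator libraries 12 h after induction Cdk4 was again first, at 194 ± 33.3 CPM per kb, but Cdkn2a at 71.4 ± 9.99 now stood above Ccnd2 at 36.1 ± 6.67 CPM per kb. Cdk6 at 19.8 ± 0.50 and Ccnd1 at 18.5 ± 2.43 CPM per kb overlapped, and Cdkn2b at 5.65 ± 4.73, Cdkn1b at 3.74 ± 1.68, Cdkn2c at 3.46 ± 1.15 and Ccnd3 at 2.57 ± 0.13 CPM per kb formed a chain in which each overlapped the next.

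**Figure D1:**
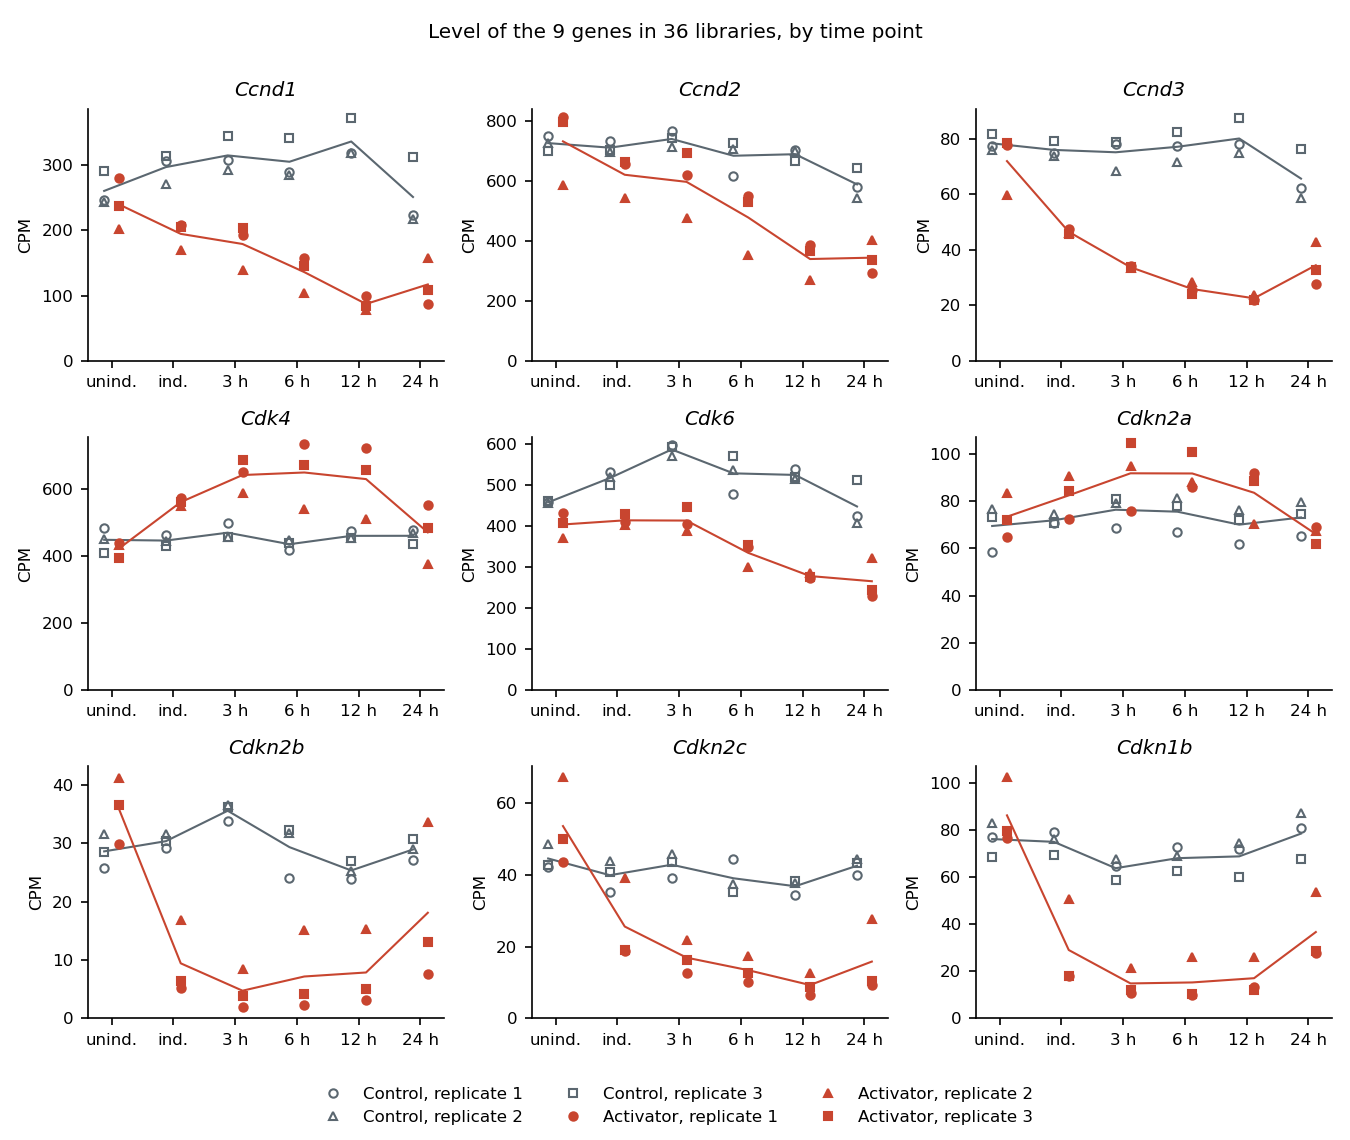
Level of each of the 9 genes in CPM (vertical axes, from 0, 1 panel per gene) against time point (horizontal axes), with open grey symbols for Control libraries, filled red symbols for Activator libraries, a symbol shape for each replicate number and lines through the group means. Cdkn2b, Cdkn2c, Cdkn1b and the 3 D cyclins were lower in Activator libraries 12 h after induction, where Ccnd3 for example lay between 21.8 and 23.8 CPM against 74.8 to 87.5 CPM in Control libraries.

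The uninduced lines were compared to see how far they differed before induction. GSAT_MM was already higher there in the Activator libraries, at 52.1 to 99.3 CPM against 33.4 to 36.5 CPM in Control libraries. None of the 9 genes differed by edgeR's quasi-likelihood test at an adjusted p under 0.05, beside 0.883% of all tested genes called higher and 0.343% called lower in the Activator line. There were 0 with an unadjusted p under 0.05, beside 10.4% of all genes, and DESeq2 called 0. The log2 fold changes ran from -0.18 for Cdk6 to 0.31 for Cdkn2b. Cdk6 was the member whose groups did not overlap, with 455 to 460.1 CPM in Control and 370.4 to 433 CPM in Activator libraries (edgeR adjusted p = 0.565).

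The Control line shows what dCas9 induction and doxycycline withdrawal did to the module without an effector. From induction to 24 h, 0 of the 9 genes changed against uninduced Control libraries at any of the 5 times in edgeR's test, beside 0.214%, 0.55%, 0.403%, 1.05% and 0.788% of all genes called at induction, 3 h, 6 h, 12 h and 24 h. The log2 fold changes lay between -0.31 and 0.37. At an unadjusted p under 0.05 there were 0, 1, 1, 1 and 2 of the 9 genes at these times: Cdk6 at 3 h and 6 h, Ccnd1 at 12 h, and Ccnd2 and Ccnd3 at 24 h. Of all tested genes 7.23%, 8.84%, 8.6%, 10.3% and 11.3% lay under that limit. DESeq2 called 0, 1, 0, 0 and 0, the 1 being Cdk6 at 3 h, whose log2 fold change was 0.36 ± 0.10 (SE) with an edgeR adjusted p of 0.111 and a DESeq2 adjusted p of 0.00868.

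Between the lines, the D cyclins, Cdk6 and the inhibitors Cdkn1b, Cdkn2b and Cdkn2c were lower in the Activator line after induction, and Cdk4 and Cdkn2a were higher under TMM scaling but not when libraries were scaled to mitochondrially encoded mRNAs. At induction 6 of the 9 genes were lower and 1 higher, beside 25.5% of all tested genes lower and 31.7% higher. At 3 h 7 were lower and 2 higher, beside 31.4% and 39.6% of all genes. At 6 h the same counts, 7 and 2, stood beside 33.3% and 40.8%, and at 12 h 7 and 2 stood beside 34.1% and 41.1%. At 24 h 6 were lower and 0 higher, beside 29.4% and 34.5%. The study used stricter limits, which ask for over 2-fold change, a mean normalised count over 100 and an adjusted p under 0.05. Under them the counts were 0, 2, 4, 5, 6 and 3 of 9 from uninduced to 24 h, beside 0.214%, 8.48%, 12.8%, 13.9%, 15.2% and 7.46% of all tested genes. The groups did not overlap for 1, 7, 8, 9, 8 and 6 of the 9 genes at these times, beside 16.5%, 57.9%, 71.4%, 69%, 73.5% and 61.6% of all tested genes. The median log2 fold change of the 9 genes from induction to 24 h was -0.61, -0.82, -1.17, -1.82 and -0.91. Over the 13628 genes with a mean normalised count above 100 it was -0.07, -0.11, -0.18, -0.29 and -0.30, and scaling to the 13 mitochondrially encoded mRNAs moved these medians to -0.44, -0.73, -0.91, -0.92 and -0.50. Under that scaling 36.7%, 33.0%, 31.6%, 36.7% and 48.0% of all calls from induction to 24 h were higher in the Activator line, against 55.4%, 55.8%, 55.0%, 54.7% and 53.9% with TMM. The mitochondrially encoded share of gene counts was 1.45% to 2.56% in Control libraries and 1.97% to 3.599% in Activator libraries from induction on, and its part in the results was not tested.

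**Figure D2:**
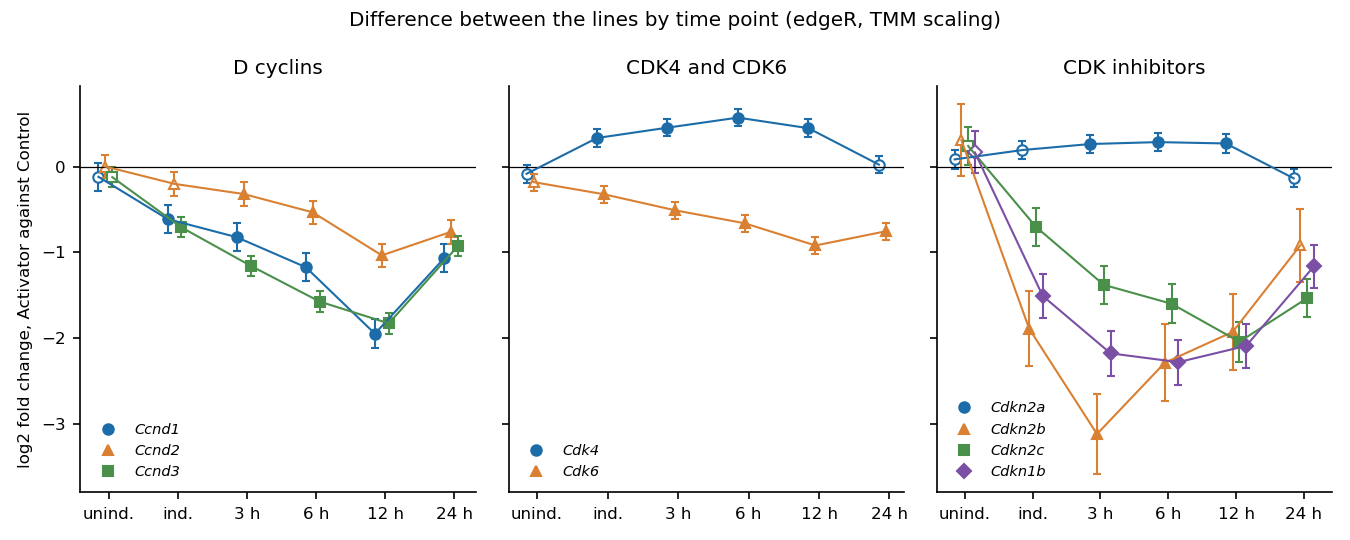
Log2 fold change between Activator and Control libraries (vertical axis, shared) at 6 time points (horizontal axes) for the D cyclins, the 2 kinases and the 4 inhibitors, from edgeR with TMM scaling, with bars for SE, filled symbols for an adjusted p under 0.05 and open symbols otherwise. Cdkn2b had a value of -3.11 at 3 h, whereas Cdk4 and Cdkn2a lay above 0 at 3 h, 6 h and 12 h and below 0 there when scaled to mitochondrially encoded mRNAs.

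Among the D cyclins, Ccnd3 and Ccnd1 were lower in the Activator line from induction on, and Ccnd2 passed the test from 3 h on. Ccnd3, a D cyclin needed for lymphocyte development, stood at 74.996, 73.7 and 79.3 CPM in induced Control libraries and at 47.5, 46.1 and 45.9 CPM in induced Activator libraries. By 6 h it was at 77.3, 71.5 and 82.6 against 25.4, 28.3 and 23.9 CPM, and by 12 h at 77.9, 74.8 and 87.5 against 22.1, 23.8 and 21.8 CPM. The groups did not overlap at induction or at any later time, and the 3 Activator replicates lay close together up to 12 h. The log2 fold change was -0.71 ± 0.12 (SE, edgeR adjusted p = 7.45e-06) at induction, then -1.15 ± 0.12 (3 h) and -1.57 ± 0.12 (6 h). At 12 h it was -1.82 ± 0.12 (edgeR adjusted p = 1.24e-13), a 3.54-fold difference. At 24 h it was -0.93 ± 0.12 (edgeR adjusted p = 9.80e-08), with Activator libraries at 27.7, 42.9 and 32.8 CPM.

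Ccnd1, whose product is the main growth-factor-responsive D cyclin of fibroblasts, stood at 305, 270.3 and 314 CPM in induced Control libraries and 208, 170.2 and 205 CPM in induced Activator libraries. By 12 h Ccnd1 was at 318, 318 and 371 CPM against 99.7, 77.4 and 84.1 CPM. At 24 h it was at 223, 217 and 312 CPM against 86.3, 157 and 108 CPM. The groups were apart at each of these times. The log2 fold change was -0.61 ± 0.16 (SE, edgeR adjusted p = 0.00207) at induction, and -0.82 ± 0.16 and -1.17 ± 0.16 at 3 h and 6 h. The value at 12 h was -1.94 ± 0.17 (edgeR adjusted p = 3.97e-11), a 3.85-fold difference, and at 24 h -1.07 ± 0.16.

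Ccnd2, the most abundant D cyclin per length in these cells, showed the smallest differences of the 3. It stood at 735, 697 and 702 CPM in induced Control libraries and 656, 544 and 663 CPM in induced Activator libraries, with a log2 fold change of -0.20 ± 0.14 (SE, edgeR adjusted p = 0.205). By 12 h Ccnd2 was at 703, 699 and 667 CPM against 386, 268 and 365 CPM, a 2.05-fold difference (log2 fold change -1.03 ± 0.14, edgeR adjusted p = 1.17e-07), and at 24 h the log2 fold change was -0.76 ± 0.14. At 3 h and 6 h the lowest Activator library was replicate 2, at 477 and 355 CPM beside 622 and 694, and 549.7 and 531 CPM in the other two. The log2 fold changes were -0.32 ± 0.14 (edgeR adjusted p = 0.0369) and -0.53 ± 0.14 (edgeR adjusted p = 0.000955). They were 0.01 (adjusted p = 0.937) and -0.15 (adjusted p = 0.16) without replicate 2 of both lines. The call at 3 h was also lost without Activator replicate 2 alone (-0.19; adjusted p = 0.231), without Activator replicate 1, without Control replicate 1 or 2, and with DESeq2 (-0.18; adjusted p = 0.235).

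Per length, the summed D cyclin RNA was 141 ± 3.96 CPM per kb (SD, n = 3) in uninduced Control and 137 ± 22.3 CPM per kb in uninduced Activator libraries. At 12 h it was 154 ± 5.12 CPM per kb in the Control line and 57.2 ± 8.69 CPM per kb in the Activator line, and at 24 h 123 ± 17.4 and 65.4 ± 14.4 CPM per kb. The groups did not overlap at 12 h or 24 h. Ccnd2 made up 54.7% of this sum, Ccnd1 39.0% and Ccnd3 6.32% in uninduced Control libraries. In Activator libraries Ccnd3 made up 6.01% before induction, 3.74% and 3.73% at 3 h and 6 h, 4.59% at 12 h and 6.00% at 24 h. Ccnd1 made up 32.5% and Ccnd2 62.9% at 12 h in the Activator line, against 46.3% and 47.8% in the Control line at that time. With the longest transcript as the length in place of all exons, Ccnd3 made up 9.93% in uninduced Control and 7.21% in Activator libraries at 12 h.

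**Figure D3:**
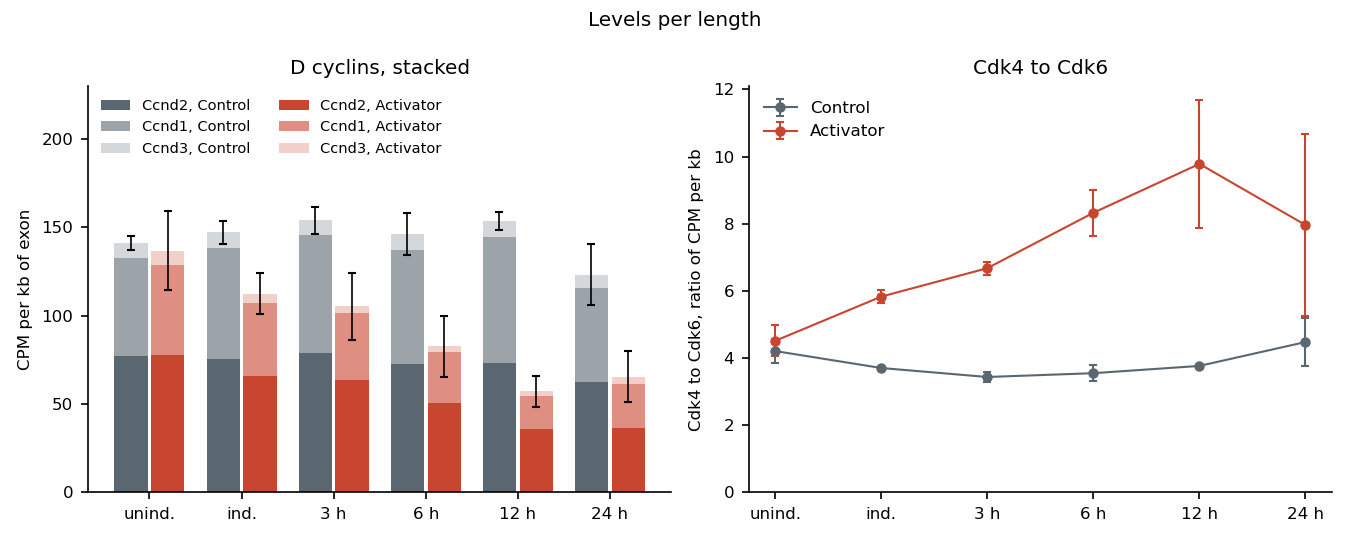
Left, CPM per kilobase of exon of the 3 D cyclins as stacked bars from 0 (group means, grey for Control, red for Activator, from dark to light Ccnd2, Ccnd1 and Ccnd3, with bars for the SD of the sum over 3 libraries) at 6 time points. Right, the ratio of Cdk4 to Cdk6 per length (mean ± SD of 3 libraries), which was 3.77 in Control and 9.78 in Activator libraries at 12 h.

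The kinases of the module went apart. Cdk4 stood at 463, 443 and 430.2 CPM in induced Control and 572, 549 and 559 CPM in induced Activator libraries, and at 6 h at 418, 446 and 439 CPM against 735, 540.0 and 671 CPM. The groups did not overlap at either time, and from induction on replicate 2 was the lowest Activator library at every time. Under TMM scaling the log2 fold change was 0.33 ± 0.10 (SE, edgeR adjusted p = 0.00672) at induction, 0.45 ± 0.10 at 3 h, 0.57 ± 0.10 (edgeR adjusted p = 1.57e-05) at 6 h and 0.45 ± 0.10 at 12 h, whereas scaled to mitochondrially encoded mRNAs it was -0.04, -0.15, -0.15 and -0.19, none of them past the test. At 24 h it was 0.02 with TMM (edgeR adjusted p = 0.859), at 551, 374 and 484 CPM against 475, 468 and 435 CPM in Control libraries, and 0.31 (adjusted p = 0.00357) without replicate 2 of both lines.

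Cdk6 was lower in the Activator line than in the Control line at induction and at each later time. Before induction its log2 fold change between the lines was -0.18, short of the test but with no overlap. Against its own uninduced level it was at 0.04 (edgeR adjusted p = 0.774) in the induced Activator line, and the change to induction did not differ between the lines past the test (-0.14, edgeR adjusted p = 0.481). Its levels were 532, 519 and 501 CPM in induced Control and 411, 403 and 428 CPM in induced Activator libraries, and 538, 515 and 521 CPM against 273, 286 and 275 CPM at 12 h. The groups were apart at both times, and at 12 h they differed 1.89-fold. The log2 fold change was -0.32 ± 0.10 (SE, edgeR adjusted p = 0.00676) at induction, then -0.51 ± 0.10 (3 h) and -0.66 ± 0.10 (6 h). It was -0.92 ± 0.10 (edgeR adjusted p = 3.18e-09) at 12 h and -0.75 ± 0.10 at 24 h. At induction the value was -0.14 (adjusted p = 0.209) without replicate 2 of both lines, -0.30 (adjusted p = 0.0736) without replicate 1 and -0.37 (adjusted p = 0.0525) without replicate 3. The ratio of Cdk4 to Cdk6 per length, which does not depend on the scaling between libraries, was 4.21 ± 0.36 (SD, n = 3) in uninduced Control and 4.51 ± 0.46 in uninduced Activator libraries. It was 3.70 ± 0.038 against 5.83 ± 0.19 at induction, 3.55 ± 0.24 against 8.32 ± 0.68 at 6 h and 3.77 ± 0.031 against 9.78 ± 1.90 at 12 h, with no overlap between the groups at these 3 times. At 24 h the Activator libraries were spread from 5.01 to 10.3, above the Control range of 3.66 to 4.95.

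The p27 gene Cdkn1b had the second largest difference of the 9 genes at induction, after Cdkn2b. Its level stood at 79.1, 76.2 and 69.4 CPM in induced Control libraries and at 18.1, 50.9 and 18.01 CPM in induced Activator libraries. At 6 h it was at 72.8, 68.8 and 62.4 CPM against 9.70, 25.9 and 10.1 CPM, and at 24 h at 80.7, 87.0 and 67.5 CPM against 27.7, 53.4 and 28.7 CPM. The groups did not overlap at these times, although Activator replicate 2 stood well above the other two. The log2 fold change was -1.51 ± 0.25 (SE, edgeR adjusted p = 1.88e-05) at induction, then -2.17 ± 0.26 (3 h) and -2.28 ± 0.26 (6 h, edgeR adjusted p = 3.66e-08), a 4.84-fold difference. Later it was -2.09 ± 0.26 (12 h) and -1.16 ± 0.25 (24 h).

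Of the INK4 genes, Cdkn2b, which encodes p15 and is known as a target of TGF-β signalling, had the largest difference of the module. It stood at 33.8, 36.6 and 36.3 CPM in Control libraries at 3 h and at 1.97, 8.40 and 3.82 CPM in Activator libraries, an 8.64-fold difference. At 24 h it was at 27.1, 28.9 and 30.7 CPM against 7.61, 33.6 and 13.02 CPM. Replicate 2 was the highest Activator library at every time, and at 24 h it was above every Control library. The log2 fold change was -1.89 ± 0.44 (SE, edgeR adjusted p = 0.000806) at induction, and -3.11 ± 0.46 (edgeR adjusted p = 2.99e-06) at 3 h. It was -2.28 ± 0.45 at 6 h and -1.92 ± 0.45 at 12 h, and -0.91 ± 0.42 (edgeR adjusted p = 0.0634) at 24 h. Without replicate 2 of both lines the value at 24 h was -1.39 (adjusted p = 3.01e-06), without Activator replicate 2 alone -1.32 (adjusted p = 0.0208) and without Control replicate 2 alone -1.19 (adjusted p = 0.0304).

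Cdkn2c, the gene of p18, was furthest from the Control line at 12 h and not at 3 h. It stood at 35.2, 43.9 and 40.7 CPM in induced Control and 18.7, 39.1 and 19.0 CPM in induced Activator libraries, where the groups overlapped through Activator replicate 2. At 12 h it was at 34.4, 37.7 and 38.4 CPM against 6.55, 12.6 and 8.69 CPM, with the groups apart and a 4.11-fold difference. The log2 fold change was -0.70 ± 0.22 (SE, edgeR adjusted p = 0.00794) at induction, then -1.38 ± 0.22 (3 h) and -1.60 ± 0.23 (6 h). It was -2.04 ± 0.23 (edgeR adjusted p = 1.57e-08) at 12 h and -1.53 ± 0.22 at 24 h. The call at induction was lost without Activator replicate 3 (-0.56, adjusted p = 0.056) and without the replicate block (-0.64, adjusted p = 0.0827). It was also lost without replicate 1 (-0.60, adjusted p = 0.0775) or 3 (-0.52, adjusted p = 0.197) of both lines.

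Cdkn2a, next to Cdkn2b on the chromosome, showed small differences whose direction depended on the scaling. It stood at 68.9, 79.3 and 81.2 CPM in Control and 75.8, 95.2 and 105 CPM in Activator libraries at 3 h, where the groups overlapped. At 12 h it was at 61.8, 76.3 and 72.3 CPM against 92.2, 70.3 and 88.5 CPM, and Activator replicate 2 lay within the Control range. Under TMM scaling the log2 fold change was 0.19 ± 0.11 (SE, edgeR adjusted p = 0.123) at induction, 0.26 ± 0.11 (adjusted p = 0.0294) at 3 h, 0.28 ± 0.11 (adjusted p = 0.018) at 6 h, 0.27 ± 0.11 (adjusted p = 0.0244) at 12 h and -0.14 (adjusted p = 0.26) at 24 h, while scaling to mitochondrially encoded mRNAs gave -0.34, -0.43 and -0.37 at 3 h, 6 h and 12 h, all past the test. The calls at 3 h, 6 h and 12 h were lost without the replicate block (adjusted p = 0.07, 0.054 and 0.0782), with library sizes in place of TMM (adjusted p = 0.141, 0.167 and 0.103), and without Control replicate 1 (adjusted p = 0.0869, 0.0689 and 0.0992). They were also lost at 3 h without Activator replicate 3 (adjusted p = 0.106) or Control replicate 2 (adjusted p = 0.0699), and at 12 h without Activator replicate 1 (adjusted p = 0.0661). Without replicate 3 of both lines all were lost (adjusted p = 0.286, 0.203 and 0.172). Without replicate 2 of both lines the values with TMM were 0.30, 0.47, 0.53 and 0.53 from induction to 12 h, all past the test. DESeq2 gave 0.27 (adjusted p = 0.0445) at induction, and the mitochondrial scaling -0.32 (edgeR adjusted p = 0.0283) at 24 h. The count covers p16Ink4a and p19Arf together, which could not be told apart. For its neighbour Cdkn2b the value at 3 h was -3.11, and the difference between the neighbours was not tested.

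Against its own uninduced libraries, 5, 7, 9, 8 and 7 of the 9 genes had changed in the Activator line from induction to 24 h, beside 60.8%, 73.2%, 74.4%, 75.1% and 62.8% of all tested genes. These fold changes set Activator libraries against Activator libraries, and so do not compare lines induced for different lengths of time. The scaling, the replicate block and the spread behind the SEs and adjusted p-values came from all 36 libraries, Control libraries included. Cdkn1b had fallen at induction (log2 fold change -1.68 ± 0.25, edgeR adjusted p = 5.16e-06), as had Cdkn2b (-2.09 ± 0.44), Cdkn2c (-1.11 ± 0.22) and Ccnd3 (-0.63 ± 0.12). Cdk4 had risen by 0.41 ± 0.10 with TMM and had a value of -0.17 when scaled to mitochondrially encoded mRNAs. Ccnd1 fell from 3 h on (-0.43 ± 0.16, edgeR adjusted p = 0.0195), a call that was lost without Activator 3 h replicate 2 (-0.31; adjusted p = 0.117) or uninduced replicate 1 (-0.30; adjusted p = 0.139), and with DESeq2 (-0.28; adjusted p = 0.112). Ccnd2 had a value of -0.29 ± 0.14 at 3 h (edgeR adjusted p = 0.0519) and fell from 6 h on, to -1.11 ± 0.14 at 12 h. Cdk6 fell from 6 h on, to -0.54 ± 0.10 at 12 h and -0.61 ± 0.10 at 24 h, and its call at 6 h (-0.27, edgeR adjusted p = 0.0151) was lost without Activator 6 h replicate 2 (-0.17; adjusted p = 0.138) or uninduced replicate 1 (-0.21; adjusted p = 0.0931), and with DESeq2 (-0.10; adjusted p = 0.338). At 12 h Cdkn2c stood at -2.55 ± 0.23, Cdkn1b at -2.40 ± 0.26, Cdkn2b at -2.39 ± 0.45, Ccnd3 at -1.67 ± 0.12 and Ccnd1 at -1.46 ± 0.17. At 24 h the 6 genes Ccnd1, Ccnd2, Ccnd3, Cdk6, Cdkn1b and Cdkn2c were below their uninduced level, with log2 fold changes from -0.61 to -1.83. Cdkn2b was at -1.18 ± 0.42 (edgeR adjusted p = 0.019), which fell short of the test without Activator 24 h replicate 1 (-0.85; adjusted p = 0.143) or 3 (-1.02; adjusted p = 0.0886), or uninduced replicate 1 (-1.08; adjusted p = 0.0563) or 3 (-1.03; adjusted p = 0.0715). Without the replicate block it was -0.99 (adjusted p = 0.153).

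A test of the difference itself asked whether the change since uninduced differed between the lines. It did for 5 of the 9 genes at induction, 8 at 12 h and 6 at 24 h, beside 32.2%, 51% and 33.1% of all tested genes. At 12 h the differences were -1.70 ± 0.16 (SE, edgeR adjusted p = 3.79e-09) for Ccnd3, -1.82 ± 0.23 (edgeR adjusted p = 2.88e-07) for Ccnd1, -2.28 ± 0.31 for Cdkn2c and -2.25 ± 0.35 for Cdkn1b. For Cdkn2a it was 0.19 ± 0.15 (edgeR adjusted p = 0.319) with TMM and -0.49 (adjusted p = 0.0217) when scaled to mitochondrially encoded mRNAs. At 24 h Cdkn2b had a value of -1.22 ± 0.59 (edgeR adjusted p = 0.116) and Cdk4 of 0.11 ± 0.14 (edgeR adjusted p = 0.621). At induction the Cdk4 difference was 0.42 with TMM (edgeR adjusted p = 0.0274) and did not pass the test with the mitochondrial scaling. With TMM it fell short without any 1 of 7 libraries, with values from 0.36 to 0.42. The Cdkn2c difference at induction, -0.94 (edgeR adjusted p = 0.0209), fell short without Activator induced replicate 3 (-0.81, adjusted p = 0.0633) or Control uninduced replicate 2 (-0.84, adjusted p = 0.0644). At 24 h the Cdk6 difference of -0.57 fell short without Activator replicate 1 (-0.38, adjusted p = 0.0507).

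Replicate 2 of the Activator line stood apart. Over all genes with a mean normalised count above 100 the SD of its log2 ratios to the Control mean was 0.70 at induction, against 0.98 and 1.03 in replicates 1 and 3. The values were 1.06 against 1.21 and 1.19 at 3 h, 1.03 against 1.27 and 1.24 at 6 h, 1.09 against 1.27 and 1.27 at 12 h. At 24 h they were 0.69 against 1.04 and 0.98. Before induction replicate 2 had the largest SD, at 0.34 against 0.21 and 0.29. GSAT_MM in replicates 1, 2 and 3 was 3573, 2362 and 25191 CPM at induction, 7996, 18728 and 47244 CPM at 12 h, and 11491, 10773 and 35424 CPM at 24 h. Replicate 2 was therefore not the lowest at every time. Among the 9 genes, the ratio of the Activator library to the Control library of the same number was smallest in size in replicate 2 for 3, 5, 6, 7 and 7 genes from induction to 24 h. No such count over all genes is given here, and 3 of 9 genes is no more than an even share among 3 replicates. For Ccnd1 and Ccnd2 replicate 2 had the largest difference at induction, 3 h and 6 h, and the smallest at 24 h. At 6 h the log2 ratios in replicates 1, 2 and 3 were -0.87, -1.45 and -1.23 for Ccnd1 and -0.17, -0.998 and -0.46 for Ccnd2. The Cdkn2b log2 ratio in replicates 1, 2 and 3 was -2.50, -0.91 and -2.26 at induction, -4.10, -2.12 and -3.25 at 3 h, and -1.83, 0.22 and -1.24 at 24 h. Cdkn1b showed -2.13, -0.58 and -1.95 at induction and -1.54, -0.70 and -1.23 at 24 h. Cdkn2c had ratios of -0.91, -0.17 and -1.10 at induction and of -2.12, -0.68 and -2.05 at 24 h. Without replicate 2 of both lines 0, 7, 8, 8, 9 and 8 of the 9 genes passed the test between the lines from uninduced to 24 h, against 0, 7, 9, 9, 9 and 6 with it. Over all genes 0.834%, 60.7%, 72.2%, 74.3%, 75.3% and 69.3% passed without it. The value of Cdkn1b at induction was then -1.87 and that of Cdkn2b at 3 h -3.44. At 12 h Cdkn2c was at -2.18, Ccnd1 at -1.81 and Ccnd3 at -1.82.

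**Figure D4:**
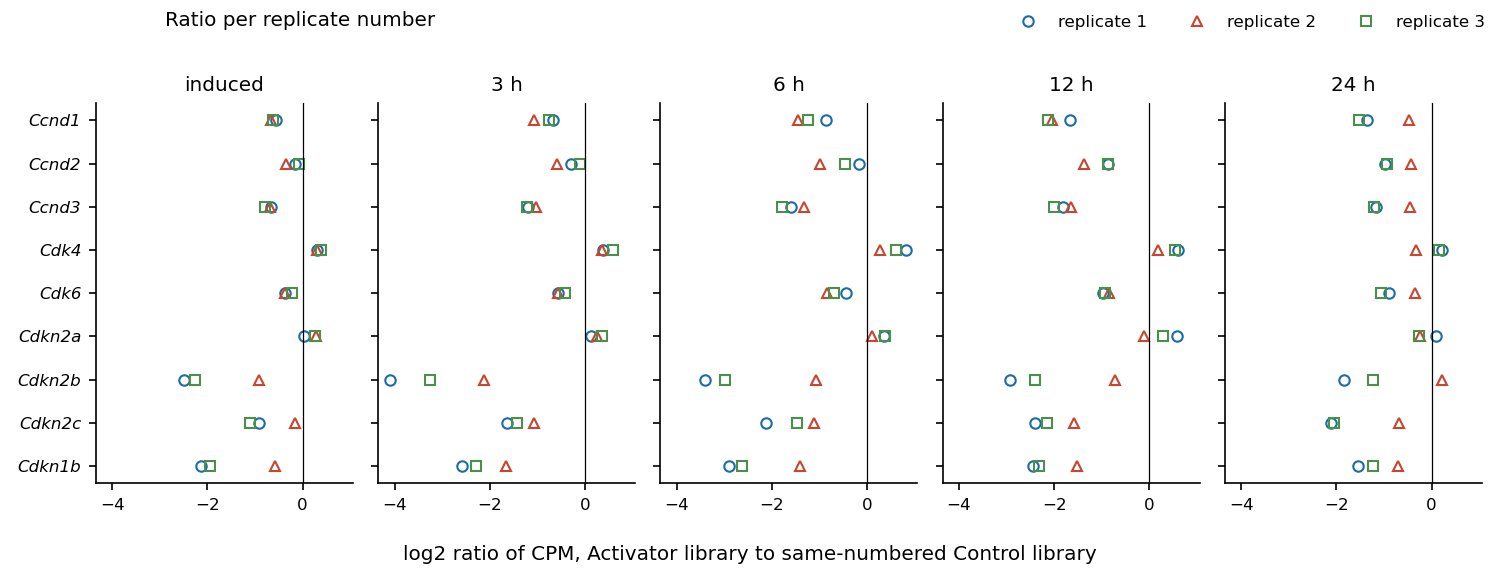
Log2 ratio of CPM between the Activator library and the Control library of the same replicate number (horizontal axis) for the 9 genes (rows) at induction and 4 later times (panels), with 1 symbol per replicate number. For Cdkn2b, Cdkn2c and Cdkn1b the triangles of replicate 2 lie nearest to 0 at induction and 24 h, at 0.22 for Cdkn2b at 24 h.

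Genes around the module were counted in lists chosen for their role, at 12 h unless another time is given, with calls beside those of all genes above (34.1% lower and 41.1% higher). Of the other CDK inhibitors 3 of 4 had enough counts to test, of which 2 were higher and 1 lower. The p53 target Cdkn1a (p21) had a log2 fold change of 2.76 ± 0.24 (SE, edgeR adjusted p = 4.68e-11), at 19.5 against 2.86 CPM, and the INK4 gene Cdkn2d (p19Ink4d) of -1.62 ± 0.17. Of the 3 pocket proteins, the targets of cyclin D kinases, 2 were lower and 1 higher: Rbl2 had a value of -0.82 ± 0.13, and Rb1 of 0.23 ± 0.097 (edgeR adjusted p = 0.0313) with TMM and -0.37 when scaled to mitochondrially encoded mRNAs. The Rb1 call was also lost without Control replicate 1 (0.19; adjusted p = 0.133) or 2 (0.22; adjusted p = 0.0751).

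Of 10 E2F and DP factors, only some of which the pocket proteins hold in check, 9 were lower, 0 higher and 1 not past the test, with a median log2 fold change of -0.87. They numbered 5, 5, 8, 9 and 10 lower and 1, 1, 1, 0 and 0 higher from induction to 24 h. E2f2, an activating member, had the largest fall at -1.92 ± 0.17 (SE, edgeR adjusted p = 6.33e-11). Of 7 cyclin E-CDK2 and G1/S genes 5 were lower and 0 higher (median -1.72), led by Cdk2, the kinase partner of cyclin E, at -2.05 ± 0.11 (edgeR adjusted p = 7.12e-15). Of the 3 subunits of the CDK-activating kinase, which phosphorylates CDKs in their activation loop, 2 were higher and 0 lower, with Ccnh at 0.49 ± 0.073 under TMM and -0.13 under scaling to mitochondrially encoded mRNAs.

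Of 10 genes of D cyclin and p27 turnover 2 were higher and 6 lower (median -0.57), with the F-box genes Fbxo4 at 1.59 ± 0.13 (SE) and Fbxo31 at -2.10 ± 0.21. Of 13 growth-factor regulators of D cyclins 3 were higher, 5 lower and 5 not past the test (median -0.13), with the immediate-early gene Egr1 at 1.90 ± 0.20 and the Wnt effector Tcf7l2 at -1.48 ± 0.22. Of 7 regulators of Cdkn1b and Cdkn2b 2 were higher and 4 lower (median -0.57). They included Foxo3, a forkhead factor known to act on Cdkn1b, at 1.55 ± 0.18, and Smad3, which transmits TGF-β signals, at -1.70 ± 0.32 (edgeR adjusted p = 4.70e-05). A list for the Ink4-Arf locus held its regulators and genes of the p19Arf, MDM2 and p53 axis. Of these 14 genes 2 were higher and 10 lower (median -0.68). They included Mdm2, a p53 target and inhibitor in that axis, at 0.86 ± 0.081 and Id1, an inhibitor of basic helix-loop-helix factors, at -2.25 ± 0.32. Of 6 genes beside Cdkn2a and Cdkn2b 5 could be tested, of which 1 was higher and 4 lower (median -1.21), and Mtap, a methionine salvage enzyme, had the largest fall at -1.77 ± 0.15. Scaled to mitochondrially encoded mRNAs, the higher and lower counts were 1 and 1 for other CDK inhibitors, 0 and 2 for pocket proteins, 0 and 10 for E2F and DP factors, 0 and 1 for the CDK-activating kinase and 0 and 7 for cyclin E-CDK2 and G1/S genes. They were 1 and 9 for turnover, 1 and 11 for growth-factor regulators, 1 and 5 for Cdkn1b and Cdkn2b regulators, 0 and 12 for the Ink4-Arf list and 1 and 4 for the neighbours of Cdkn2a and Cdkn2b. Over all genes 28.1% were higher and 48.5% lower under that scaling. Mdm2 was then at 0.26 (adjusted p = 0.114).

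**Figure D5:**
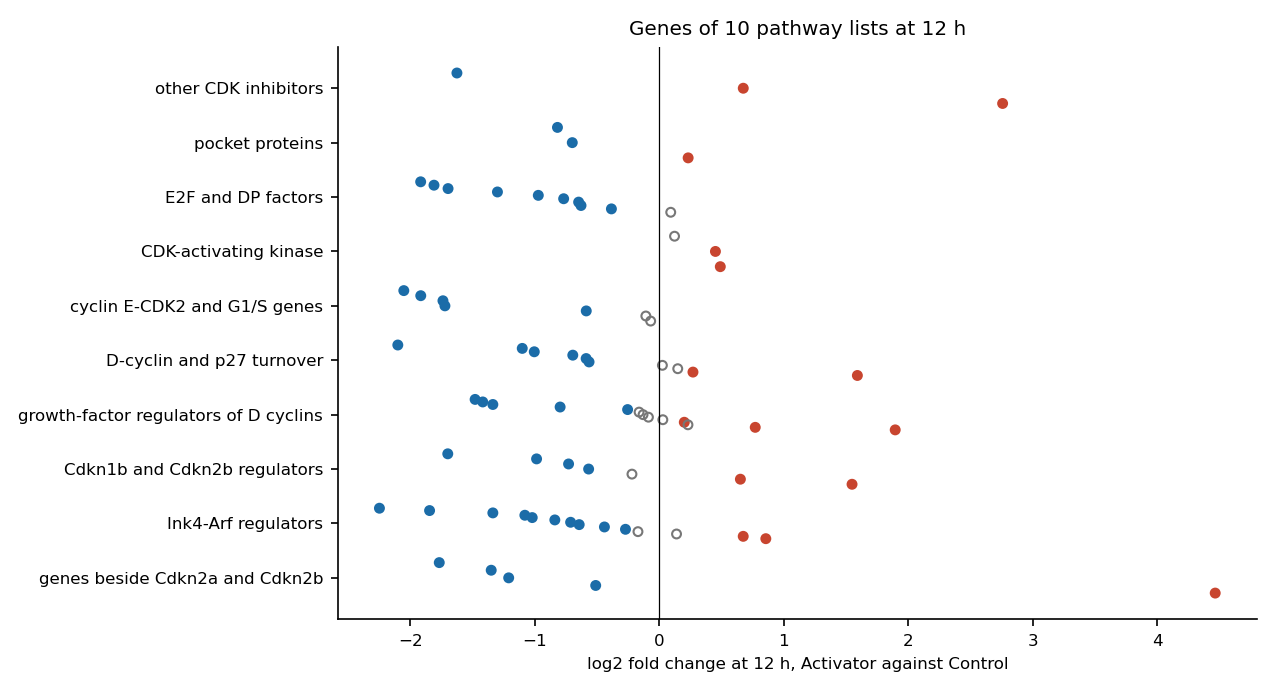
Log2 fold change at 12 h between Activator and Control libraries (horizontal axis) of each tested gene in 10 lists (rows), with TMM scaling. Filled symbols mark an adjusted p under 0.05 (red higher, blue lower) and open grey symbols the others. Among E2F and DP factors 9 of 10 points are filled blue, and in the list of other CDK inhibitors the point far to the right is Cdkn1a at 2.76.

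The genes whose log2 levels followed each member most closely over the 36 libraries were named by Pearson's r among 13628 genes, as a description, since the libraries share lines, times and replicates. For Cdkn1b they were Pbx2 (r = 0.990), Mid1ip1 (0.990) and Bcl9l (0.989). For Cdkn2b they were Plekhh3 (0.988), Klf13 (0.985) and Nod1 (0.985), and for Cdkn2c Plekha8 (0.977), Igsf9b (0.977) and Wdr91 (0.974). For Ccnd3 they were Fam57a (0.991), Tk1 (0.990) and Wnk1 (0.990), and for Cdk4 both genes named Atp5o (0.987 and 0.984). Cdk6 was followed by Ddx51 (0.968), Yipf2 (0.961) and Fasn (0.960), and Cdkn2a, less closely than the others, by Gm21983 (0.901), Gm42420 (0.876) and Rab4b (0.847). For Ccnd1 they were LTO1 (0.986), Cers5 (0.983) and Mbnl1 (0.982), and for Ccnd2 Gm43126 (0.992), Ahcyl1 (0.966) and Coro1c (0.964).

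LTO1 and Gm43126 overlap Ccnd1 and Ccnd2 on the opposite strand, and whether the counting used strand is not given in the sources used here, so reads of such pairs may not be told apart. At 12 h LTO1, with a mean over libraries of 58.8 CPM against 226 CPM for Ccnd1, had a log2 fold change between the lines of -1.83, and Gm43126, with 29.8 CPM against 605 CPM for Ccnd2, of -1.11. Bysl, which overlaps Ccnd3 and had a higher mean level (71.6 against 57.3 CPM), was at -0.91 where Ccnd3 was at -1.82. Tspan31, which overlaps Cdk4 at 66.4 against 507 CPM, was at -0.32 where Cdk4 was at 0.45 with TMM and -0.19 when scaled to mitochondrially encoded mRNAs. Overlapping Cdk6, Gm17590 was at -1.25 and Gm42435 at -1.56.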

How the data were processed

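Total RNA was sequenced from 3 biological replicates of 12 groups (2 lines at 6 time points). The counts deposited by the authors are raw read counts per gene and per repeat family, made, per the study's methods and the labels, from ribosome-depleted stranded paired-end libraries by adapter trimming with cutadapt, alignment with STAR to GRCm38 and counting with TEtranscripts. The strand setting, the annotation release and the sharing of multi-mapping reads are not given in the sources used here. Of the table, 54842 genes were used, and 1561 repeat families and 1 unnamed entry (at most 2369 counts in a library) were left out of library sizes and tests. No 2 libraries held identical counts.

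Genes were filtered with filterByExpr, scaled by TMM and tested with edgeR 4.0.16 (R 4.3.3, limma 3.58.1), by a robust quasi-likelihood fit over the 36 libraries with 12 groups and the replicate number as a block, since the study's DESeq2 formula also holds the replicate. P-values were adjusted by Benjamini-Hochberg over all 28536 tested genes, and the threshold was 0.05. The SE was taken from the F statistic, as the absolute log2 fold change over its square root. Lengths are unions of annotated exons. DESeq2 1.42.0, other scalings, filters and designs and the omission of replicates were the alternatives. The fit was tried on simulated counts in which few genes changed, up and down equally often, in a single group. That simulation could not check the scaling where most genes differ, as they do here between the lines. The acceptance criterion set first was not met and was replaced by another, with the analysis unchanged. The members, lists and tests were chosen with earlier results of these data known. All members are named, and of each list the gene with the largest rise and fall past the test at 12 h with a mean normalised count above 100. Libraries of the MSR-dCas9-Repressor line were not used here. The p-values rest on 3 replicates a group. At these depths the 9 genes had mean counts of 914 (Cdkn2b) to 25697 (Ccnd2). A gene that the rule on likeness names is not reported here.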

Additional observations from a re-analysis of the deposited data

Results flagged for a closer look

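The change since uninduced differed between the Activator and the Control line, by a test of the difference itself in edgeR, for the following genes. At induction the difference in log2 fold change was -0.58 for Ccnd3, -1.67 for Cdkn1b, -2.19 for Cdkn2b, -0.94 for Cdkn2c and, for Cdk4, 0.42 with TMM scaling and 0.0083 when scaled to mitochondrially encoded mRNAs. At 12 h it was -1.82 for Ccnd1, -1.03 for Ccnd2, -1.70 for Ccnd3, -0.74 for Cdk6, -2.25 for Cdkn1b, -2.23 for Cdkn2b, -2.28 for Cdkn2c and, for Cdk4, 0.53 with TMM and -0.14 when scaled to mitochondrially encoded mRNAs. At 24 h it was -0.95 for Ccnd1, -0.76 for Ccnd2, -0.80 for Ccnd3, -0.57 for Cdk6, -1.32 for Cdkn1b and -1.77 for Cdkn2c. The lines were induced for different lengths of time, which cannot be told apart from the effector in these differences. Without the replicate block the differences of Cdk4, Cdkn2b and Cdkn2c at induction, of Cdkn2b at 12 h and of Cdkn1b at 24 h did not pass the test. Without replicate 3 of both lines all differences at induction fell short, Cdkn1b (-1.44, edgeR adjusted p = 0.106) and Ccnd3 (-0.51, edgeR adjusted p = 0.194) included. Without replicate 1 those at induction other than Cdkn1b fell short. Without replicate 1, and also without replicate 3, Cdk4 and Cdkn2b at 12 h fell short. The same held for Ccnd1, Ccnd2, Ccnd3, Cdk6 and Cdkn1b at 24 h.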

How the results depend on the processing

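Of the log2 fold changes of the 9 genes over 19 comparisons, 1148 values under other processing kept their direction and their side of the threshold, 27 fell short of the threshold, 22 newly passed it, 17 reversed and 37 moved without passing. When libraries were left out, 1579 kept both, 79 fell short, 21 newly passed, 1 reversed and 21 moved. The reversals arose with scaling to mitochondrially encoded mRNAs, apart from Ccnd2 at 3 h, whose values ran from -0.44 to 0.0091 when libraries were left out. That scaling gave, between the lines, Cdk4 at -0.038, -0.15, -0.15 and -0.19 from induction to 12 h, Cdkn2a at -0.34, -0.43 and -0.37 from 3 h to 12 h, Rb1 at -0.37 and Ccnh at -0.13. Within the Activator line it gave Cdk4 at -0.17 (induction) and -0.16 (6 h), Cdk6 at -0.54 and -0.56 (induction, 3 h) and Cdkn2a at -0.41, -0.27, -0.45 and -0.32 (induction to 12 h). At induction 8 of the 9 genes had then changed in place of 5, beside 18647 of all tested genes in place of 17363. For the difference between lines in the change by 12 h the mitochondrial scaling gave -0.14 for Cdk4 and -0.49 for Cdkn2a. The cause was not tested.

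The limits of the study, which add size and level, left 2, 4, 5 and 3 genes between the lines at induction, 3 h, 6 h and 24 h, 3, 4 and 4 within the Activator line at induction, 3 h and 6 h, and 2 and 2 for the difference between lines at induction and 24 h. DESeq2 called 1 gene in the Control line at 3 h. Leaving out replicates gave 3 to 7 genes between the lines at induction, 0 to 1 in the Control line at 3 h, and 0 to 5 and 1 to 8 for the difference between lines at induction and 24 h. These low counts between the lines and for the difference came without replicate 3 of both lines, and at 24 h also without replicate 1. The counts over all genes without these replicates are not given here. Without replicate 3 the induction calls of Cdk4 (0.31, adjusted p = 0.127), Cdkn2b (-1.72, adjusted p = 0.0548) and Cdkn2c (-0.52, adjusted p = 0.197) between the lines were lost.

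Same-numbered libraries were compared for pairing by the correlation of their deviations from the group means. Between time points it ran from 0.186 to 0.814 within the Control line and from 0.169 to 0.906 within the Activator line. Libraries of different numbers were not compared, so these positive values do not by themselves show that the numbers pair libraries. Between the lines it ran from 0.321 to 0.507 uninduced and from 0.152 to 0.316 at induction. The lowest and highest were 0.217 and 0.509 (3 h), 0.153 and 0.444 (6 h), -0.023 and 0.361 (12 h), and 0.0503 and 0.347 (24 h). The numbers were thus not shown to pair libraries of different lines, least of all at 12 h and 24 h. Without the replicate block 2 of the 9 genes in place of 5 passed for the difference between lines at induction, beside 6902 of all tested genes in place of 9177. Cdk4, Cdkn2b and Cdkn2c fell short there (adjusted p = 0.07, 0.0752 and 0.126). Also lost without it were the differences between lines of Cdkn2b at 12 h (-2.01, adjusted p = 0.0513) and Cdkn1b at 24 h (-1.28, adjusted p = 0.0685), the values of Cdkn2a from 3 h to 12 h, Ccnd2 at 3 h (adjusted p = 0.0767) and Cdkn2c at induction between the lines, and Cdkn2b in the Activator line at 24 h (-0.99, adjusted p = 0.153). Over all genes, edgeR called 350 between the uninduced lines against 558 with DESeq2, 143 scaled to mitochondrially encoded mRNAs and 203 without the block. In the Control line it called 61, 157, 115, 300 and 225 from induction to 24 h, against 202, 411, 351, 602 and 691 with DESeq2, 26, 58, 52, 130 and 62 without the block, 26, 25, 55 and 32 from 3 h on with the mitochondrial scaling, 104 at 3 h with library sizes, and 164, 329, 259 and 361 at induction, 3 h, 6 h and 24 h without replicate 2. A fit of only the 6 libraries at 24 h called 9904 against 18240. The share of calls that were positive for the difference between lines was 55.8%, 59.0% and 62.1% with DESeq2 against 45.0%, 45.0% and 43.5%. Cdkn2b had the lowest counts of the 9 genes.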
